A study of Mus musculus with 6 samples.

Results

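The genes described here encode the SR proteins, the heterogeneous nuclear ribonucleoproteins (hnRNPs), and the SF3 and U2AF subunits that recognise the 3′ splice site. They were chosen by symbol, as every gene whose name starts with Srsf, Hnrnp, Sf3a or Sf3b together with U2af1 and U2af2, among probesets that list a single gene symbol. This gave 38 genes, of 19938 with such a probeset, and comprised 10 SR protein genes, 17 hnRNP genes and 11 SF3 and U2AF genes. Of the 38, 38 passed the filter on dim probesets and were tested, among 14994 genes. Hnrnpa1, Hnrnpa3 and Hnrnph3 occur only in probesets that list several symbols, and these 3 genes were not analysed here, nor was Srsf7, which the annotation used here does not name.

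The transcripts were read on MoGene 1.0 ST arrays, which carry probes along the transcribed length of each gene, in KSL SLAM cells from mouse bone marrow. These cells carry c-Kit, Sca-1 and CD150, lack lineage markers, CD48 and CD41, and are enriched for haematopoietic stem cells. For 7 days, mice were given either PBS or G-CSF, the granulocyte colony-stimulating factor, at 125 mcg/kg under the skin with 2 injections a day. Each group had 3 arrays, and each array came from a separate pool of 5 to 10 mice. The labels name no strain, age or sex.

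SR proteins carry RNA recognition motifs and an arginine-serine tail, bind exonic enhancers and help to define exons, and their activity depends on phosphorylation of that tail. Many hnRNPs bind silencer sequences in exons and introns and act against SR proteins, and hnRNPs also package, export and stabilise RNA. The SF3a and SF3b complexes belong to the U2 snRNP, which binds the branch point, while the U2AF heterodimer reads the polypyrimidine tract and the AG at the end of the intron. In human myeloid neoplasms and clonal haematopoiesis, SRSF2, U2AF1 and SF3B1 are among the splicing genes that are recurrently mutated in stem cells.

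At the level of these arrays, 0 of the 38 genes passed the limma test for a difference between G-CSF and PBS after Benjamini-Hochberg adjustment over all 14994 genes (smallest adjusted p = 0.486, in Sf3b4). The background was 0.0267% of all genes, which is 4 genes. At an unadjusted p under 0.05, 2 of the 38 genes were lower with G-CSF and 0 were higher, or 5.26%, beside 6.04% of all genes, so the share lay near the background. The groups did not overlap in 1 of the 38 genes, which was lower with G-CSF, and in 10.8% of all genes, of which the higher direction made up 5.77% of all genes and the lower 5.05%. The median difference (log2 intensity, G-CSF minus PBS) was -0.02 over the 38 genes and 0.00152 over all genes tested. Of the 38 differences 21 were negative and 17 were positive, beside 7447 and 7547 over all genes.

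A missed threshold does not show that the levels were equal, so the limma 95% intervals of the differences are given as well. In 32 of the 38 genes the whole interval lay within 1 log2 unit, which is 2-fold, of no difference (84.2%, against 78.7% of all genes tested). In 18 of the 38 it lay within 0.58 log2 units, which is 1.5-fold, where 37.4% of all genes had intervals of that kind. The 6 genes with wider or displaced intervals were Sf3b4, Sf3a3, Sf3a2, Sf3b6, Hnrnpr and Hnrnpll.

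**Figure D1:**
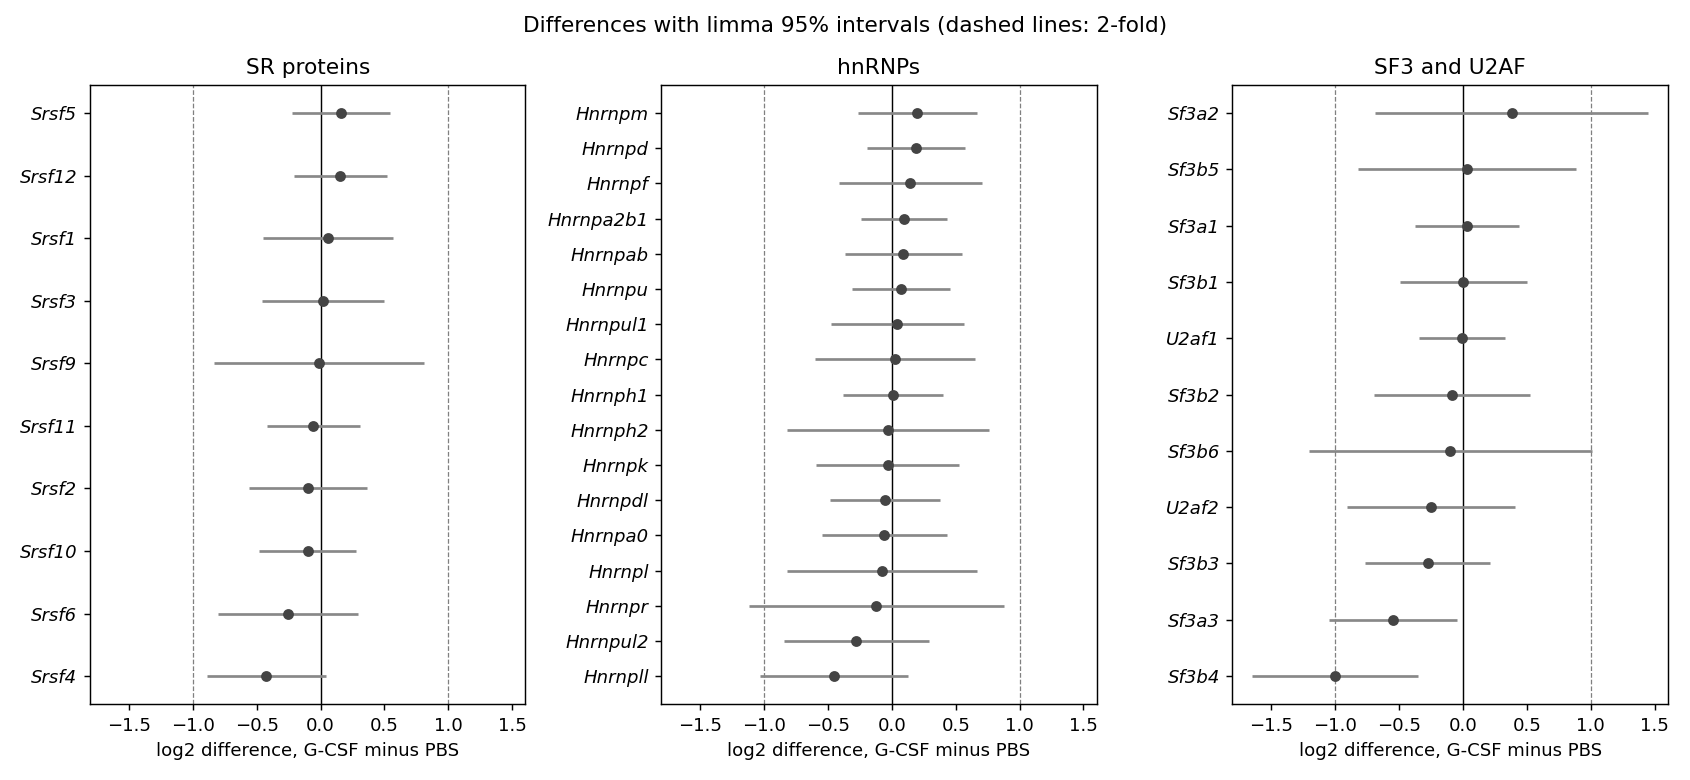
Difference in log2 intensity (G-CSF minus PBS, 3 arrays per group) of the 38 genes by family, with points for the limma estimate, bars for its 95% interval and dashed lines at 2-fold. The bars of Sf3b4 and Sf3a3 lie wholly below 0, those of the other 36 genes cross it, and the 10 SR protein bars stay inside the dashed lines.

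The SF3 genes held the only members at an unadjusted p under 0.05. Sf3b4 encodes an SF3b subunit with RNA recognition motifs that contacts the pre-mRNA upstream of the branch point. Its log2 intensity was 7.57, 7.85 and 8.45 in PBS replicates 1 to 3 and 6.97, 6.62 and 7.27 in G-CSF replicates 1 to 3. Each G-CSF value was lower than each PBS value, the order found in 5.05% of all genes. The mean was 7.96 ± 0.45 (SD, n = 3) with PBS and 6.95 ± 0.33 with G-CSF, a difference of -1.003 (SE 0.28, 95% interval -1.65 to -0.36, limma adjusted p = 0.486), or 2.00-fold in favour of PBS. Sf3b4 has a second probeset, and this one showed no such difference. It read 6.81, 6.52 and 7.25 with PBS against 6.46, 7.01 and 7.23 with G-CSF, a log2 difference of 0.04 (SE 0.27). With the average of both probesets the difference was -0.48, with an adjusted p of 0.885 by limma, and its unadjusted p was no longer under 0.05. The RefSeq gene table (assembly GRCm38.p6) lists a pseudogene under the synonym Sf3b4_ps, and whether either probeset reads it was not tested.

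Sf3a3, which encodes the SF3a subunit that bridges the complex to the rest of the U2 snRNP, read 7.67, 8.02 and 7.94 with PBS and 7.15, 7.12 and 7.72 with G-CSF. One G-CSF array, replicate 3, reached into the PBS range. The log2 difference was -0.55 (SE 0.21, 95% interval -1.05 to -0.05, limma adjusted p = 0.766). By limma, its unadjusted p was no longer under 0.05 without PBS replicate 2, PBS replicate 3, G-CSF replicate 1 or G-CSF replicate 2 (largest 0.109), and without these arrays in turn the difference was between -0.52 and -0.44. It also lost that p with a trended, robust variance model (0.0642) and with array weights (0.0661), both by limma. Over its 15 alternatives the difference lay between -0.745 and -0.44, and 9 of them had an unadjusted p under 0.05 by limma (smallest 0.00757).

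Markers of other cells differed between the same arrays. The marker lists were chosen with earlier results of these data known, so their counts are descriptions only. The mature neutrophil markers had array means of 7.41 to 8.06 (log2) with PBS and 9.37 to 9.95 with G-CSF, with 18 of 19 tested markers higher and not overlapping. The other, Ly6g, overlapped (log2 difference -0.19). Over all genes, 5.77% were higher and 5.05% lower without overlap. Of the 14 granulocyte-monocyte progenitor markers 11 were higher without overlap (array means 6.27 to 6.56 and 7.27 to 7.99), and of the 7 tested monocyte and macrophage markers 5 were (6.25 to 6.69 and 6.91 to 7.02). The progenitor markers that overlapped were Cebpa (0.29), Gfi1 (-0.11) and Irf8 (0.04). Of the 17 tested mitosis genes, 8 were higher without overlap (6.07 to 6.47 and 6.84 to 6.92). Of the 10 tested megakaryocyte and platelet markers 3 were lower without overlap and 1 was higher (6.47 to 6.72 and 5.94 to 6.05). The 20 tested genes of the stem cell list had array means of 7.71 to 7.95 with PBS and 7.33 to 7.74 with G-CSF, and 4 were lower without overlap. This list also holds Cd48, which the gate excludes, Flt3 (0.35) and Ptprc (0.44). Of its 20 differences 16 were negative and 4 positive. Array means of erythroid and lymphoid markers overlapped between the groups (6.56 to 6.99 against 6.42 to 6.62, and 5.91 to 6.16 against 5.91 to 6.11). Of the 7 tested erythroid markers 1 was lower without overlap (Car2, -0.78), and of the 7 tested lymphoid markers 0 were without overlap. In these lists 0 genes passed over all genes, and their part in the Sf3b4 and Sf3a3 values was not tested. In pooled sorted cells, a smaller share of cells that hold a transcript and less of it per cell cannot be told apart. Among the genes of the gate itself, Kit (log2 difference -0.98, limma adjusted p = 0.374) read 9.85 to 10.28 with PBS and 8.63 to 9.28 with G-CSF. In the same order, Slamf1 (CD150) read 6.41 to 6.65 and 5.95 to 6.60, and Itga2b (CD41) 6.24 to 6.51 and 6.18 to 6.25. Cd48 read 4.61 to 6.14 and 4.68 to 5.98, around the filter's limit of 5.15. Sca-1 was not in these lists.

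The remaining SF3 genes showed no common direction. Sf3b1, the large SF3b scaffold that clamps the branch point helix, read 9.99, 10.17 and 10.31 with PBS and 9.80, 10.48 and 10.22 with G-CSF, so the PBS values lay inside the G-CSF range. Its log2 difference was 0.00317 (SE 0.21, 95% interval -0.50 to 0.50). The differences of its partners were -0.09 for Sf3b2, which contacts the branch region, -0.27 for the scaffold subunit Sf3b3, 0.03 for the small subunit Sf3b5 and -0.10 for Sf3b6, which touches the branch point adenosine. Of these, Sf3b6 varied most within groups (SD 0.68 with PBS and 0.80 with G-CSF), since both arrays numbered 1 were low, at 7.22 and 6.99 against 8.20 or more in the other 4 arrays. Sf3a2 had the largest positive log2 difference of the 38 genes, 0.38 (SE 0.46), and it rested on 1 array. It read 7.59, 6.91 and 7.25 with PBS and 7.33, 6.87 and 8.70 with G-CSF, and without G-CSF replicate 3 the difference was -0.15. Sf3a1, the SF3a subunit with surp domains, differed by 0.03 (SE 0.17). Sf3b5 read 7.68, 7.75 and 8.73 with PBS and 7.70, 7.88 and 8.68 with G-CSF, the highest array of each group being replicate 3.

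U2af1, the small U2AF subunit that reads the intron's terminal AG, was the steadiest gene of its family. It read 7.90, 7.87 and 7.69 with PBS and 7.82, 7.78 and 7.84 with G-CSF. The log2 difference was -0.00755 (SE 0.14, 95% interval -0.35 to 0.33), and the second U2af1 probeset differed by -0.02. U2af2, the large subunit that binds the polypyrimidine tract, differed by -0.25 (SE 0.28). Its G-CSF replicate 1 stood at 7.03, below the 7.77 to 8.13 of the other 5 arrays, and without it the difference was 0.06.

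**Figure D2:**
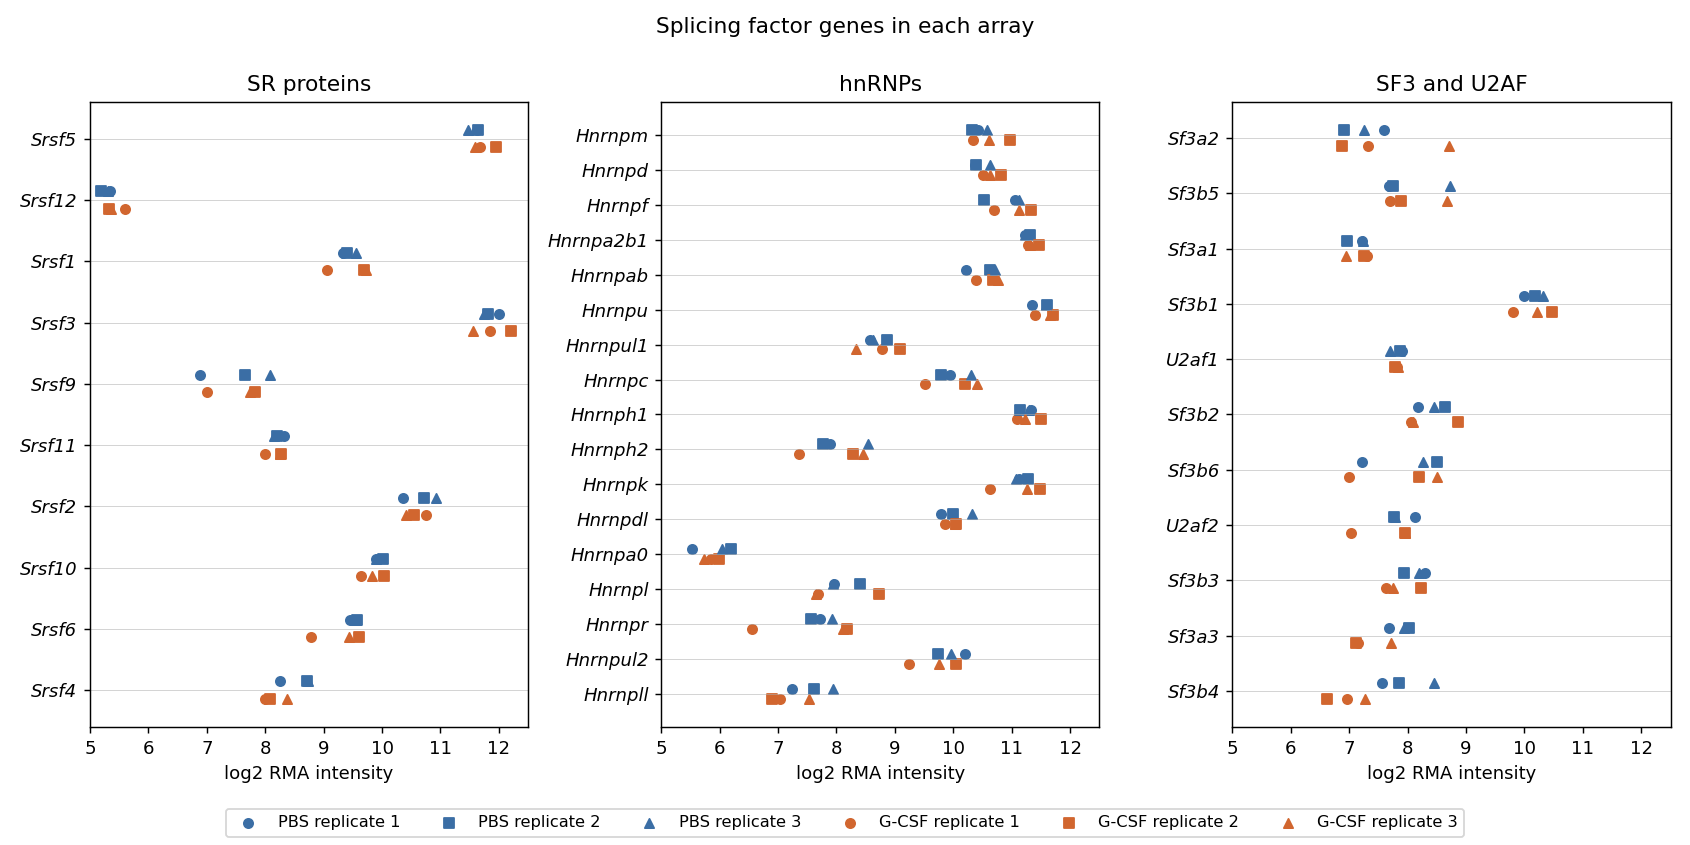
Log2 RMA intensity of each of the 38 genes in each array, by family, with blue for PBS and orange for G-CSF, a symbol for each replicate number, and genes ordered by their difference. The colours separate only for Sf3b4, and for Sf3a2, Hnrnpr and U2af2 a single G-CSF array lies apart from the rest.

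Among the SR protein genes, 6 differences were negative and 4 positive, with a median of -0.04 and 0 genes at an unadjusted p under 0.05. Srsf2, an enhancer-binding SR protein and the member of this family known for myeloid mutations, read 10.36, 10.71 and 10.93 with PBS and 10.75, 10.55 and 10.42 with G-CSF. The G-CSF values all fell inside the PBS range, and the log2 difference was -0.10 (SE 0.20, 95% interval -0.56 to 0.37). Srsf1, the founding SR protein that also acts in mRNA export and decay, read 9.34, 9.40 and 9.55 with PBS and 9.05, 9.69 and 9.73 with G-CSF (difference 0.06, SE 0.22). The G-CSF values bracketed those of PBS. Srsf3, the smallest SR protein and an export adaptor, read 11.99, 11.81 and 11.74 with PBS and 11.86, 12.20 and 11.55 with G-CSF. Its difference was 0.02 (SE 0.20), and its other probesets differed by 0.00386 and -0.00241.

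Srsf4, a long-tailed SR protein, had the largest negative difference of the family. It read 8.26, 8.72 and 8.74 with PBS and 7.99, 8.08 and 8.37 with G-CSF, and the groups overlapped only through PBS replicate 1 and G-CSF replicate 3. The log2 difference was -0.43 (SE 0.20, 95% interval -0.89 to 0.04, limma adjusted p = 0.855). Over its 15 alternatives it lay between -0.58 and -0.34, and 3 of them had an unadjusted p under 0.05 by limma (smallest 0.0229). Srsf6, a regulator of exon inclusion, read 9.45, 9.57 and 9.56 with PBS and 8.78, 9.60 and 9.43 with G-CSF. Its difference of -0.26 (SE 0.23) rested on G-CSF replicate 1, and without that array it was -0.00967. Srsf5 read 11.62, 11.64 and 11.47 with PBS and 11.68, 11.95 and 11.58 with G-CSF (difference 0.16, SE 0.16). Srsf12, which lay near the filter's limit of 5.15, read 5.34, 5.18 and 5.30 with PBS and 5.60, 5.33 and 5.36 with G-CSF (difference 0.16, SE 0.15). The groups of both genes overlapped, and the difference was 0.05 for Srsf5 without G-CSF replicate 2 and 0.07 for Srsf12 without G-CSF replicate 1. Srsf9 (-0.02, SE 0.35), Srsf10 (-0.10, SE 0.16) and Srsf11 (-0.06, SE 0.15) completed the family, and Srsf9 varied most, from 6.89 in PBS replicate 1 to 8.08 in PBS replicate 3.

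Srsf10, whose protein acts as a splicing repressor when dephosphorylated, was read differently by its 2 probesets. The one used for the gene read 9.90, 10.01 and 9.90 with PBS and 9.65, 10.04 and 9.82 with G-CSF. The second one read 7.19, 7.57 and 6.88 with PBS and 7.70, 7.78 and 7.62 with G-CSF. There each G-CSF value was higher than each PBS value, by 0.48 on the log2 scale (SE 0.21, 95% interval from 0.000179 to 0.97, unadjusted p = 0.0499 and adjusted p = 0.85 by limma over 16341 probesets). Of all these probesets, 5.87% had an unadjusted p under 0.05 and 10.9% were without overlap. Within each array, the second Srsf10 probeset minus the first was -2.72 ± 0.29 (SD, n = 3) with PBS and -2.14 ± 0.17 with G-CSF, with no overlap. For Sf3b4 the same within-array value was -1.10 ± 0.30 with PBS and -0.06 ± 0.45 with G-CSF, again with no overlap. An exact two-sided permutation test gave p = 0.1 for each, the smallest p that 3 against 3 arrays allow, and adjusted p = 0.6 over the 12 pairs of probesets compared. In the other 10 pairs the groups overlapped. Whether any of these probesets reads a related sequence at another locus was not tested.

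**Figure D3:**
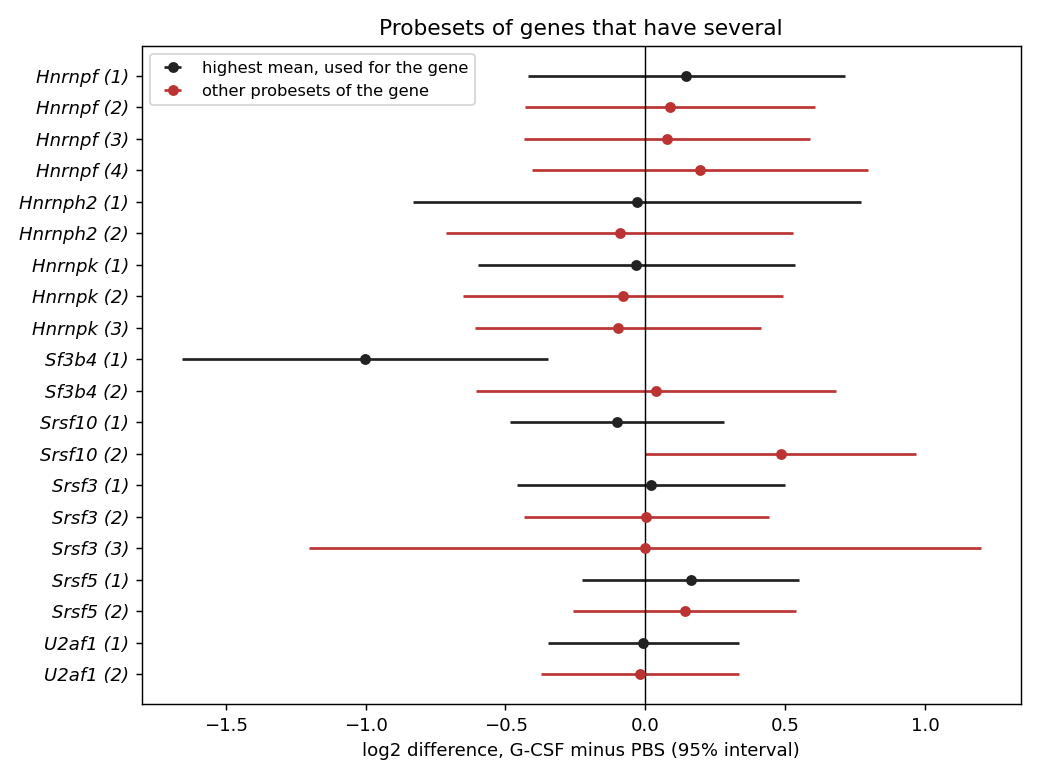
Log2 difference (G-CSF minus PBS, points, with limma 95% intervals as bars) of the 20 probesets that belong to the 8 genes with several, numbered by decreasing mean intensity, with the probeset used for each gene in black. Hnrnpf, Hnrnph2, Hnrnpk, Srsf3, Srsf5 and U2af1 have estimates close together, while those of Sf3b4 and Srsf10 lie apart.

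The hnRNP genes were split evenly, with 8 negative and 9 positive differences, a median of 0.01 and 0 genes at an unadjusted p under 0.05. Hnrnpa2b1, a binder of exonic silencers, had one of the narrowest spreads. It read 11.23, 11.31 and 11.24 with PBS and 11.28, 11.47 and 11.32 with G-CSF, a difference of 0.10 (SE 0.14, 95% interval -0.24 to 0.44). Hnrnpk, which binds C-rich sequence in RNA and DNA, read 11.12, 11.29 and 11.07 with PBS and 10.63, 11.48 and 11.26 with G-CSF. The G-CSF values bracketed those of PBS, and the difference was -0.03 (SE 0.24), with -0.08 and -0.10 by the other Hnrnpk probesets.

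Hnrnpll, which in mouse lymphocytes controls the skipping of CD45 exons, had the largest negative difference of the family. It read 7.25, 7.62 and 7.94 with PBS and 7.03, 6.89 and 7.53 with G-CSF. The groups overlapped, and the log2 difference was -0.45 (SE 0.25, 95% interval -1.03 to 0.13, limma adjusted p = 0.921). With 1 array left out it ranged from -0.64 (without G-CSF replicate 3) to -0.28 (without PBS replicate 3). Its unadjusted p by limma was 0.0405 without G-CSF replicate 3 and 0.0448 without PBS replicate 1. Hnrnpul2 read 10.20, 9.73 and 9.96 with PBS and 9.25, 10.05 and 9.75 with G-CSF (difference -0.28, SE 0.24). Only G-CSF replicate 1 lay below the PBS range, and without it the difference was -0.06. The largest positive differences were those of Hnrnpm and Hnrnpd. Hnrnpm, a splicing regulator that binds GU-rich RNA, read 10.42, 10.32 and 10.58 with PBS and 10.34, 10.97 and 10.62 with G-CSF (difference 0.20, SE 0.20). Without G-CSF replicate 2 its difference was 0.04, and without G-CSF replicate 1 it was 0.35. Hnrnpd, also called AUF1 and known for promoting decay of AU-rich mRNA, read 10.38, 10.38 and 10.63 with PBS and 10.51, 10.82 and 10.63 with G-CSF (difference 0.19, SE 0.16, and 0.10 without G-CSF replicate 2). In both genes the groups overlapped.

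Hnrnpr, a relative of the mRNA-binding protein Syncrip, showed the widest spread of the hnRNP genes. It read 7.72, 7.57 and 7.92 with PBS and 6.55, 8.18 and 8.12 with G-CSF, so that 1 G-CSF array lay below and the other two above all PBS arrays. Its difference was -0.12 (SE 0.43) and became 0.41 without G-CSF replicate 1. Hnrnpl, which binds CA repeats, likewise had 1 G-CSF array above the PBS range (8.73 in replicate 2) and the other two below it (7.69 and 7.65), with a difference of -0.07 (SE 0.32). The other 9 hnRNP genes lay between -0.06 (Hnrnpa0, SE 0.21) and 0.15 (Hnrnpf, SE 0.24). They were Hnrnpab (0.09), Hnrnpu (0.07), which binds scaffold-attached chromatin, Hnrnpul1 (0.04), Hnrnpc (0.02), which binds uridine tracts, Hnrnph1 (0.01) and Hnrnph2 (-0.03), which with Hnrnpf bind G tracts, and Hnrnpdl (-0.06).

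**Figure D4:**
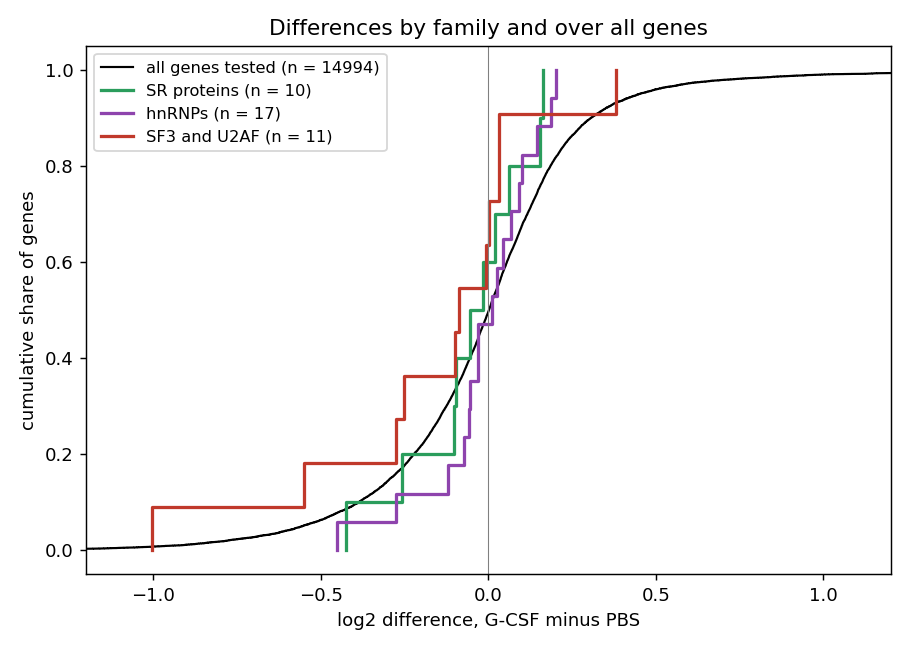
Cumulative share of genes (vertical axis) at or below a given log2 difference (G-CSF minus PBS, horizontal axis, shown from -1.2 to 1.2) for all 14994 genes tested and for each family. The curves of SR proteins and hnRNPs cross the curve of all genes, and the SF3 and U2AF curve lies to its left below 0, with a median of -0.09.

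For SR proteins and hnRNPs, the family means of the groups lay closer together than the SD between arrays in either group. For SF3 and U2AF they lay further apart than the PBS SD but less far than the G-CSF SD. No test of these means was run. Family means of log2 intensity were 9.26 ± 0.10 (SD, n = 3) with PBS and 9.20 ± 0.16 with G-CSF for SR proteins, 9.63 ± 0.12 and 9.61 ± 0.28 for hnRNPs, and 8.06 ± 0.13 and 7.90 ± 0.27 for SF3 and U2AF. In each family the array means overlapped between the groups. The median difference of SF3 and U2AF was -0.09, and it became 0.05 when G-CSF replicate 1 was left out. Leaving out replicate 2 of that group gave -0.25, and leaving out replicate 3 gave -0.22. That of SR proteins ranged from -0.12 to 0.03 and that of hnRNPs from -0.10 to 0.16 when each array was left out in turn.

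Arrays of the same group also differed among themselves. G-CSF replicate 1 was the lowest array of its group in 25 of the 38 genes (65.8%), among them 13 of the 17 hnRNP genes, where it was lowest in 37.2% of all genes tested. G-CSF replicate 2 was the highest in 22 of the 38 (57.9%), and in 34.8% of all genes. Among the 1702 genes with a mean log2 intensity above 8, G-CSF replicate 1 was lowest in 64.3% and G-CSF replicate 2 highest in 52.8%. Of the 26 splicing factor genes above that level, G-CSF replicate 1 was lowest in 21 (80.8%) and G-CSF replicate 2 highest in 19 (73.1%). In the PBS group, replicate 1 was the lowest in 19 of the 38 genes, against 35.6% of all genes. The median deviation from the gene's mean over the 6 arrays was -0.30 in G-CSF replicate 1 and 0.19 in G-CSF replicate 2, and it lay between -0.07 and 0.12 in the other 4 arrays. The median within-group SD was 0.27 over the 38 genes and 0.26 over all genes tested. It was 0.24 for SR proteins, 0.29 for hnRNPs and 0.36 for SF3 and U2AF.

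**Figure D5:**
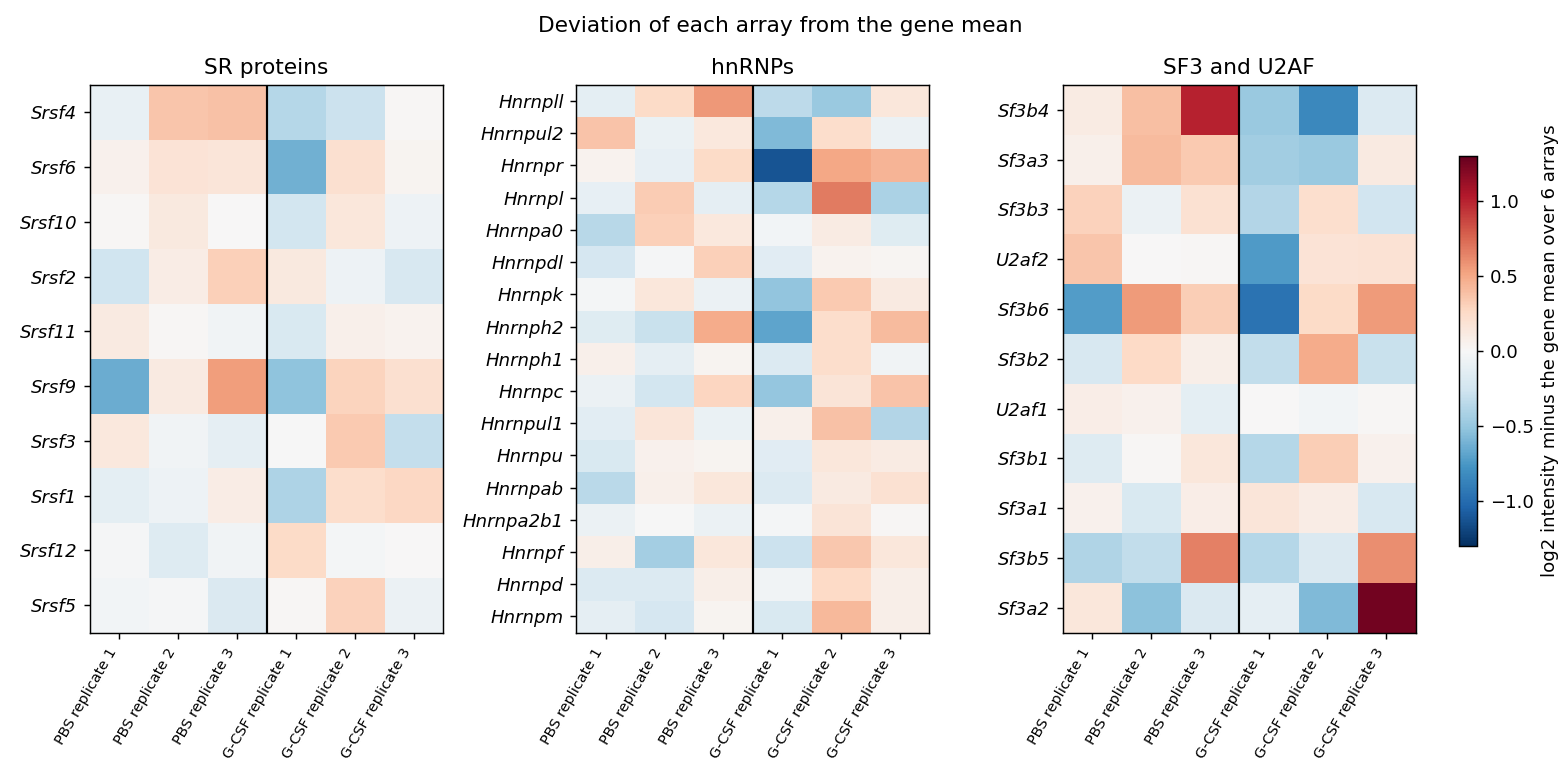
Log2 intensity of each gene in each array minus the gene's mean over the 6 arrays, by family, with blue below and red above the mean and a line between PBS and G-CSF arrays. The column of G-CSF replicate 1 is mostly blue (median -0.30 over the 38 genes) and that of G-CSF replicate 2 mostly red (median 0.19).

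Other genes of the splicing machinery were taken from lists by role. Of 124 listed genes 111 were tested, with 69 negative and 42 positive log2 differences and a median of -0.04. Over all genes 0 passed (smallest limma adjusted p = 0.669), and at an unadjusted p under 0.05 there were 3 lower (background 3.3%) and 0 higher (background 2.73%). The groups did not overlap in 4 genes that were lower with G-CSF and 2 that were higher, of 111, beside 5.05% and 5.77% of all genes. The 3 were Clk3, a kinase that phosphorylates SR proteins, Lsm3, a subunit of the ring on U6 snRNA, and Snrnp200, the helicase that unwinds U4 from U6. Clk3 read 8.08, 7.99 and 8.51 with PBS and 7.63, 7.78 and 7.76 with G-CSF (difference -0.47, SE 0.19, adjusted p = 0.786 by limma), without overlap. Lsm3 read 9.79, 10.45 and 10.07 with PBS and 8.91, 9.52 and 9.56 with G-CSF (difference -0.78, SE 0.25), also without overlap. Snrnp200 differed by -0.49 (SE 0.21), with overlap.

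By role, the 10 tested SR protein kinases and import receptors had a median log2 difference of 0.06, with Tnpo1 at 0.30 (SE 0.18) and Srpk3 at 0.25 (SE 0.18) next to Clk3. The 14 partners at the 3′ splice site and in the U2 snRNP had a median of -0.10, and U2af1l4 (-0.23), U2surp (-0.20) and Snrpb2 (-0.47, SE 0.47) had the smallest p. The 16 snRNP core and Lsm genes had a median of -0.21, with Lsm7 at -0.70 (SE 0.41) and Snrpa, a U1 snRNP protein, at 0.29 (SE 0.17, without overlap) after Lsm3. Array means of these 16 genes overlapped between the groups (8.64 to 9.25 with PBS and 8.36 to 9.02 with G-CSF), as did those of each other list by role. In the 27 genes of the tri-snRNP, PRP19 complex and helicases the median was -0.02, with Prpf8 at -0.32 (SE 0.20) and Prpf3 at -0.38 (SE 0.30). The 35 other splicing regulators had a median of -0.08. Luc7l2 (0.28, SE 0.14) was higher and Rbfox2 (-0.30, SE 0.15) lower without overlap between the groups, and Rbm10 differed by -0.27. Mbnl1 (-0.10, SE 0.14), named after its values were seen, was the other gene of this list that was lower without overlap. The 9 tested genes of nonsense-mediated decay and the exon junction complex had a median of 0.00809, with Smg6 at -0.30 (SE 0.22), Rnps1 at 0.23 and Upf2 at 0.12.

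Promoter sequence is a feature that the choice by name did not use. RefSeq windows of the 250 bases before the gene start (GRCm38.p6, first listed start) were matched for 33 of the 38 genes. Sf3b4, Sf3b5, U2af2, Hnrnpll and Hnrnpul2 were not matched. The windows held a median of 22 CG dinucleotides, beside 6 over the windows of all 27025 genes in the table. The ETS core CTTCCG, searched on both strands, occurred in 16 of the 33 (48.48%) and in 13.76% of all windows. Of the 8 SF3 and U2AF windows 7 held it, against 4 of 10 for SR proteins and 5 of 15 for hnRNPs. The GC box GGGCGG, on both strands, was in 24 of 33 (72.73%, against 32.94% of all), the CCAAT box CCAAT in 16 of 33 (48.48%, against 34.46%) and the TATA box TATAAA in 4 of 33 (12.12%, against 12.97%). The palindromic cAMP response element was in 0 of 33 (1.62% of all). The windows of all genes include genes that were not tested on these arrays. The ETS core and the GC box each contain a CG, and no background of equal CG count was compared. Such matches are descriptions and not binding sites.

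The windows of 3 genes are shown because they are the matched members with the largest negative log2 difference in the SF3 and the SR family (Sf3a3, -0.55, and Srsf4, -0.43) and the steadiest SF3 and U2AF gene (U2af1, -0.00755). Capitals mark the ETS core CTTCCG and the GC box GGGCGG on either strand, overlaps merged. They lie at chr4:124714611-124714860 (plus strand), chr4:131873387-131873636 (plus strand) and chr17:31658765-31659014 (minus strand) and are written 5′ to 3′ along the gene.
Sf3a3: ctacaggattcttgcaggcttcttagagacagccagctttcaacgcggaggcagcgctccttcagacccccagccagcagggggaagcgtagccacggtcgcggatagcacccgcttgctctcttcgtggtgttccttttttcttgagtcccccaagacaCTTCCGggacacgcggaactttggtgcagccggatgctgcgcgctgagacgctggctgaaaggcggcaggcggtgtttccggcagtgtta
Srsf4: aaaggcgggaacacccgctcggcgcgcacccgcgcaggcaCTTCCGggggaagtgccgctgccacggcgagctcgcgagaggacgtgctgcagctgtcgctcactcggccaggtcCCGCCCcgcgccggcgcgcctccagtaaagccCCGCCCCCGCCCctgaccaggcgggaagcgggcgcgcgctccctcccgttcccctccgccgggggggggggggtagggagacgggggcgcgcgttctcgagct
U2af1: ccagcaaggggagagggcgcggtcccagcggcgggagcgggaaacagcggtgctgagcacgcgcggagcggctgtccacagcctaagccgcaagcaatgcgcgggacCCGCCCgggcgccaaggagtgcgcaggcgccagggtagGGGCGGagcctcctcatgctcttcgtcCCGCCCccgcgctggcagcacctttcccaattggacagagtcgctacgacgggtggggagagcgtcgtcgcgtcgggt
Sf3a3 and Srsf4 each held 1 ETS core, and U2af1 held 0. Srsf4 and U2af1 held 3 GC boxes each, and Sf3a3 held 0.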

How the data were processed

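RNA was amplified with the NuGen Ovation system, per the labels' protocols, and the 6 arrays, 3 per group, were grouped by their labels. The authors deposited 1 intensity value per probeset and array, processed with RMA per the submitters' processing notes. The values ran from 2.70 to 19069 with array medians of 56.2 to 61.7, so they are on a linear scale, and log2 was taken. No label or header names the RMA software, its version or a genome build. Of 35554 probesets, 21789 list 1 gene symbol, 1621 several, and 12144 are unnamed here. The platform annotation's symbols were looked up by gene identifier in the RefSeq table, which held 21698 of them, and 0 symbols changed. Probesets in the lowest 25% by mean over all arrays (log2 up to 5.15) were left out, and the brightest probeset stood for a gene. Where a probeset lies in the genome was not checked, so the brightest one may read a related sequence at another locus. Spearman's rho between arrays was 0.861 to 0.895 within and 0.836 to 0.892 between groups, and 3 arrays per group limit the precision.

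Groups were compared with limma 3.58.1 (R 4.3.3; lmFit and eBayes, two-sided, no covariate), with Benjamini-Hochberg adjustment over 14994 genes and a threshold of 0.05. The fit was tested on simulated data with independent noise in each gene, which held no shift shared across an array. p-values measure the spread between pools. The members and lists were chosen with earlier results of these data known. Among the 38 members, every array value was given for genes at an unadjusted p under 0.05 or without overlap, for the 2 largest differences in each direction per family and for Srsf2, U2af1, Sf3b1, Srsf1, Srsf3, Hnrnpa2b1 and Hnrnpk. Hnrnpa1 was also in that rule but had no probeset with 1 symbol. The per-array values of Hnrnpr and the second probesets of Sf3b4 and Srsf10 were added after their values were seen, as were the fit over 16341 probesets and the within-array test. From each splicing list, up to 3 genes with the smallest p were named. Alternatives were the filter, normalization, variance model, array weights, probeset rule, symbols, the replicate number as a block and leaving out each array. Figures were drawn with matplotlib 3.10.9.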

Additional observations from a re-analysis of the deposited data

How the results depend on the processing

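Of the 38 splicing factor genes, 0 passed over all genes under every alternative run (smallest adjusted p = 0.264 by limma, Sf3b4 with the replicate block). The count of all genes called was 4, and it was 12 after quantile normalization, 2 with median-centred arrays, 6 with trend and robust, 5 with the replicate block and 0 to 6 with 1 array left out. It was 0 without both arrays numbered 1, an alternative chosen after seeing the data, as was testing each probeset. Members at an unadjusted p under 0.05 numbered 2, and 1 with trend and robust, with array weights, with the mean of probesets and without both arrays numbered 1, and 1 to 4 with 1 array left out. Sf3a3 was the one lost with trend and robust and with array weights, and Sf3b4 with the mean of probesets. With the replicate number as a block they numbered 4, Hnrnpll (0.0483) and Srsf4 (0.0493) being added by limma's unadjusted test. The share of all genes at an unadjusted p under 0.05 rose as well, from 6.04% to 8.07% with the block. It was 5.33% to 6.88% with 1 array left out. The labels do not say that replicate numbers pair pools, so the block was only an alternative. Between PBS and G-CSF arrays, deviations correlated at 0.289, 0.0186 and 0.193 for shared numbers and at -0.282 to 0.101 for different ones. G-CSF replicate 2 correlated best with another number, and whether the numbers mark pairs or a batch was not tested. Sf3b4 ranged from -1.198 to -0.48. Leaving out the lowest 50% of probesets gave no value for Hnrnpa0 and Srsf12. With 3 arrays a group, small differences could not be measured.

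These log2 differences changed sign, and the cause was not tested. With array weights they were Hnrnph1 -3.165e-05, Hnrnph2 0.0406, Hnrnpk 0.00537, Hnrnpul1 -0.015, Sf3a1 -0.0157, Sf3b6 0.0451, Srsf3 -0.0353 and Srsf9 0.0398. With median-centred arrays they were Hnrnph1 -0.00778 and Sf3b1 -0.0147. The mean of probesets gave Srsf10 0.192. Quantile normalization gave Hnrnpk 0.0761, Sf3b1 -0.025, Srsf9 0.0182 and U2af1 0.011. With 1 array left out, the ranges were Hnrnpa0 -0.253 to 0.0799, Hnrnpab -0.0612 to 0.201, Hnrnpc -0.155 to 0.285, Hnrnpdl -0.178 to 0.0883, Hnrnpf -0.0396 to 0.323, Hnrnph1 -0.103 to 0.0994, Hnrnph2 -0.242 to 0.306, Hnrnpk -0.21 to 0.215 and Hnrnpl -0.429 to 0.112. Further ranges were Hnrnpr -0.403 to 0.413, Hnrnpu -0.0124 to 0.16, Hnrnpul1 -0.136 to 0.241, Sf3a1 -0.059 to 0.141, Sf3a2 -0.153 to 0.761, Sf3b1 -0.154 to 0.187, Sf3b2 -0.35 to 0.0527, Sf3b5 -0.264 to 0.37 and Sf3b6 -0.487 to 0.354. The last were Srsf1 -0.0567 to 0.279, Srsf11 -0.101 to 0.0278, Srsf2 -0.248 to 0.0341, Srsf3 -0.146 to 0.179, Srsf9 -0.341 to 0.254, U2af1 -0.073 to 0.0318 and U2af2 -0.405 to 0.0563.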
